A study of Mus musculus with 6 samples.

Results

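The Ikaros zinc finger family comprises the 5 genes Ikzf1 (Ikaros), Ikzf2 (Helios), Ikzf3 (Aiolos), Ikzf4 (Eos) and Ikzf5 (Pegasus), which were taken by gene symbol from a table of 53458 mouse genes. All 5 had reads and were among the 22170 genes that passed the filter on low counts. The family was chosen on the known difference of Ikzf2 between the genotypes compared here, so the genotype values of its members are given as a description, without a test.

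RNA sequencing was carried out on leukemic blasts from the bone marrow of 6 transplanted mice, with 1 library per mouse. GEO gives the strain as C57BL/6, and per the study's methods donors were C57BL/6J and recipients C57BL/6J.SJL. The control group, Cebpa-/p30 Tet2+/+, comprised mice 19, 23 and 24, and the group lacking TET2, Cebpa-/p30 Tet2-/-, comprised mice 5, 7 and 8. Both groups carried a Cebpa allele that makes only the short p30 isoform of the transcription factor C/EBPα, together with a deleted second allele, so full-length p42 was absent from controls as well. TET2 is a dioxygenase that oxidizes 5-methylcytosine and thereby takes part in DNA demethylation. In the model, irradiated recipients received marrow with floxed alleles, and deletion was induced after engraftment by poly(I:C) through Mx1-Cre, an interferon-responsive Cre that is not specific to blasts. Cells were collected from moribund animals, frozen, and sorted as viable donor cells (CD45.2+) negative for CD3, B220 and Ter119. The sort lowers erythroid cells as well as T and B cells, among which lie major sites of Ikzf1, Ikzf2 and Ikzf3 expression. It does not select a single stage of myeloid differentiation.

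Ikaros proteins bind DNA through N-terminal C2H2 zinc fingers and pair with themselves or one another through C-terminal fingers. They recruit chromatin remodelling and co-repressor complexes, above all NuRD, and are best known for their part in lymphoid commitment. Ikzf1 is expressed throughout hematopoiesis, and loss of its function is frequent in lymphoblastic leukemia. Splice forms of Ikzf1 that lack N-terminal fingers bind DNA poorly or differently while still able to pair with other members. Ikzf2 is expressed in hematopoietic stem cells and regulatory T cells, Ikzf3 in B and plasma cells, and Ikzf4 in regulatory T cells, whereas Ikzf5 has a divergent DNA-binding domain and is expressed broadly. Ikzf1 and Ikzf3 are the substrates through which lenalidomide acts in human cells when it binds the cereblon ubiquitin ligase.

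The structural feature that Ikzf1 to Ikzf4 have in common is a coding exon of 168 bases that holds N-terminal fingers 2 and 3, the core of DNA recognition. These exons are shown to let the members be compared at the level of sequence. They were read from GENCODE M21 transcripts of GRCm38, 5′ to 3′ on the coding strand, and capitals mark the codons for the 4 zinc-binding residues of each finger.
Ikzf1 (chr11:11754007-11754174, + strand): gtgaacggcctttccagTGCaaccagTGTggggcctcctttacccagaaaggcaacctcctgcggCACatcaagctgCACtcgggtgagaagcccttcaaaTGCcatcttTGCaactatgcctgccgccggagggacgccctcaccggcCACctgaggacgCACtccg
Ikzf2 (chr1:69570493-69570660, - strand): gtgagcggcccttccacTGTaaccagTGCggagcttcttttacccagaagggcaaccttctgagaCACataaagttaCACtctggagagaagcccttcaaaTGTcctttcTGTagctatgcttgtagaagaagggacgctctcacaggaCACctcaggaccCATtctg
Ikzf3 (chr11:98488852-98489019, - strand): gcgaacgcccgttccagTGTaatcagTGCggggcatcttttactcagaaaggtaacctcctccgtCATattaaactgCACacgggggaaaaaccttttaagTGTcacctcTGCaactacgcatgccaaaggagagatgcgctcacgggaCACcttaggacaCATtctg
Ikzf4 (chr10:128640141-128640308, - strand): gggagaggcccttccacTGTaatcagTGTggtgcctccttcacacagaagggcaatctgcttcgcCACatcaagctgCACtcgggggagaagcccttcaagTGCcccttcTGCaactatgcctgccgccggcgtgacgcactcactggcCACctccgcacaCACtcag

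All 4 exons are in the same reading frame and encode 2 fingers each. Compared base by base without gaps, Ikzf1 and Ikzf4 were the most alike, with 138 of 168 identical bases (82.1%). Ikzf1 matched Ikzf2 at 78.6% and Ikzf3 at 76.8% of bases. The lowest identity, 73.2%, was shared by the pairs Ikzf2 with Ikzf3 and Ikzf3 with Ikzf4. The main transcripts of Ikzf1, Ikzf2, Ikzf3 and Ikzf4 each code for 6 finger motifs, the last pair of which lies in the final exon. Ikzf5 has no exon of this kind, and its main transcript codes for 5 finger motifs.

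Few stretches as long as those Salmon matches were shared with other genes. Of all 31-base words in the annotated transcripts of each gene, on either strand, none of Ikzf1 (of 5833), 1.12% of Ikzf2, 0.0115% of Ikzf3 and 0.932% of Ikzf4 occurred in a transcript of another gene. Ikzf5 was different, since 82.7% of its words recurred elsewhere and 79.6% recurred in Pstk, which makes a phosphoseryl-tRNA kinase. A 5294-base Pstk transcript (Pstk-211) is annotated on the opposite strand across the last exon of Ikzf5. The library kit does not preserve strand, so reads of Ikzf5 and of this transcript could not be told apart there.

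To establish which members the blasts express, levels were compared between genes as TPM, a unit that takes transcript length into account. Ikzf1 was by far the most abundant member, with 57.1, 57.6 and 58.2 TPM in Tet2+/+ mice 19, 23 and 24 and with 55, 70.7 and 57.6 TPM in Tet2-/- mice 5, 7 and 8. Its share of the summed TPM of the family, taken in each mouse and then averaged, was 80.5% in Tet2+/+ blasts and 87.4% in Tet2-/- blasts. Ikzf5 came next with 6.59 to 11 TPM in the Tet2+/+ group and 6.40 to 8.0 TPM in the Tet2-/- group. Ikzf2 and Ikzf3 were low, and Ikzf4 was close to absent with at most 0.0586 TPM in any mouse.

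Over the 6 mice, the mean levels were 59.4 TPM for Ikzf1, 7.83 for Ikzf5, 2.32 for Ikzf2, 1.22 for Ikzf3 and 0.0259 for Ikzf4. Neighbours in this order were compared within mice on the scale of log2(TPM + 0.1), with an exact two-sided sign-flip permutation test for the pairs that do not involve Ikzf2. Ikzf1 exceeded Ikzf5 by 2.92 ± 0.31 (SD, n = 6; exact p = 0.03125), in 6 of 6 mice. Ikzf3 exceeded Ikzf4 by 3.33 ± 0.56 (SD, n = 6; exact p = 0.03125) in all 6 mice, by 3.79 ± 0.10 in Tet2+/+ and 2.86 ± 0.37 in Tet2-/- mice (SD, n = 3 each). Its size depends on the pseudocount, since Ikzf4 lies below 0.1 TPM, and was 1.09 on the scale of log2(TPM + 1). This p, the smallest that 6 mice allow, stays at 0.03125 after Benjamini-Hochberg adjustment over these 2 pairs (0.0417 over all 4, Ikzf2 included), and the order itself was taken from the same mice. The pairs with Ikzf2 are given as a description, as its level differs by the contrast on which the family was chosen. Ikzf5 exceeded Ikzf2 in 6 of 6 mice, by 1.20 ± 0.84 in Tet2+/+ and 3.35 ± 0.96 in Tet2-/- mice (SD, n = 3 each). Ikzf2 was above Ikzf3 in 4 of 6 mice, with a difference of 1.08 ± 0.87 in Tet2+/+ and -0.34 ± 0.54 in Tet2-/- mice (SD, n = 3 each). Ikzf3 stood above Ikzf2 in mice 7 and 8. When only protein-coding transcripts were summed, Ikzf2 was above Ikzf3 in 6 of 6 mice, by 1.03 on average, though narrowly in mice 7 (0.657 against 0.615 TPM) and 8 (0.297 against 0.278 TPM). Ikzf3-201, the only coding transcript of Ikzf3, made up 42.0 to 79.6% of its TPM.

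**Figure D1:**
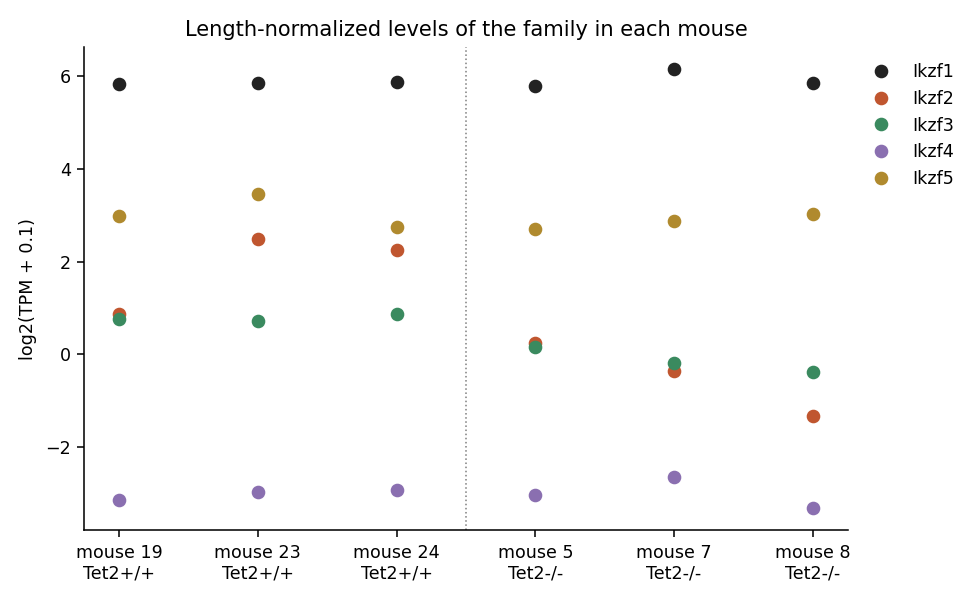
Length-normalized levels, as log2(TPM + 0.1), of the 5 family members (colours) in each of the 6 mice, with Tet2+/+ mice to the left of the dotted line. Ikzf1 lies at the top and Ikzf4 at the bottom in every mouse, while Ikzf2 and Ikzf3 change places in mice 7 and 8; Ikzf4 of mouse 8, at 0 TPM, is drawn at the pseudocount.

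Levels between genotypes were then compared as CPM, read counts scaled to a common library size with TMM factors, together with the log2 fold change of Tet2-/- over Tet2+/+ and its standard error (SE) from an edgeR fit across all genes. Ikzf2, which the choice of the family rests on, was the member with the largest difference. Its level was 24.5, 65.5 and 59.1 CPM in Tet2+/+ mice 19, 23 and 24 but 14.4, 9.58 and 4.23 CPM in Tet2-/- mice 5, 7 and 8. The groups did not overlap, although mouse 19 was well below the other Tet2+/+ mice and mouse 5, the highest of the Tet2-/- group, came closest to it. The mean was 49.7 ± 22.1 CPM in Tet2+/+ and 9.41 ± 5.10 CPM in Tet2-/- blasts (SD, n = 3 each), with a log2 fold change of -2.39 (SE 0.53). Highest and lowest mice differed by 2.68-fold within the Tet2+/+ group and by 3.41-fold within the Tet2-/- group. These values rest on 409, 1223 and 840 estimated reads in the Tet2+/+ mice and on 456, 149 and 78 in the Tet2-/- mice. The share of Ikzf2 in the summed TPM of the family, averaged over the mice of each genotype, was 5.44% in Tet2+/+ and 1.01% in Tet2-/- blasts. In bulk RNA, fewer cells that express a gene and less RNA per cell cannot be told apart.

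**Figure D2:**
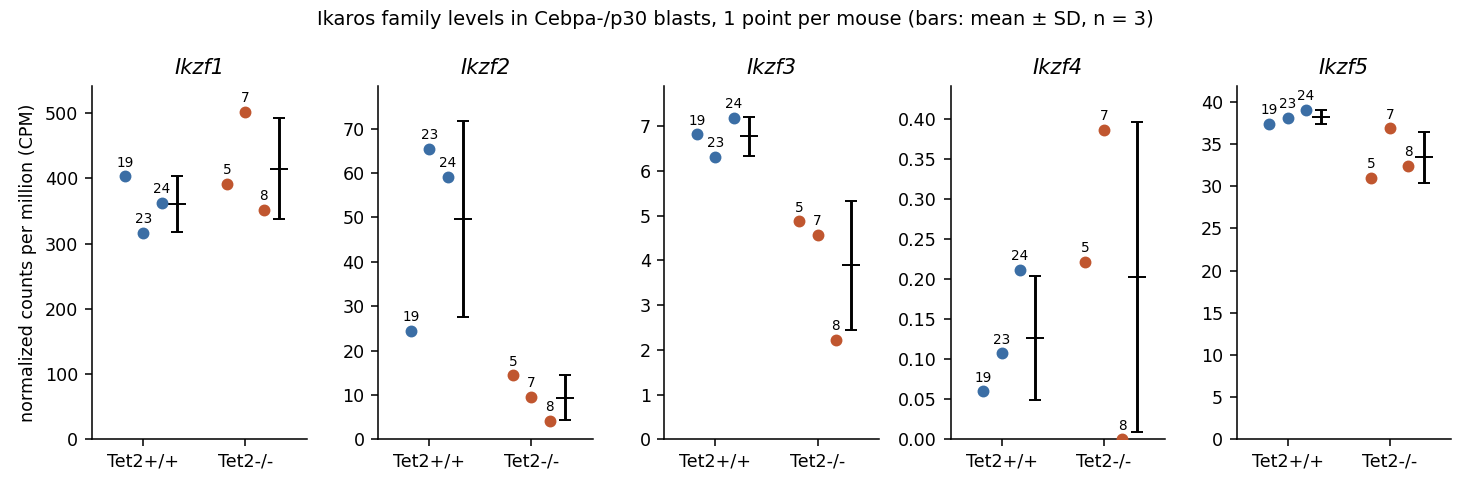
TMM-normalized CPM of each family member (1 panel per gene, own linear axis from 0), with 1 numbered point per mouse and bars for mean ± SD of 3 mice. Ikzf2 and Ikzf3 are lower in each Tet2-/- mouse than in any Tet2+/+ mouse, Ikzf5 differs by a small margin, and Ikzf1 and Ikzf4 overlap.

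Ikzf3 was low in all mice and lower still without TET2. It measured 6.82, 6.32 and 7.18 CPM in the Tet2+/+ mice and 4.87, 4.57 and 2.22 CPM in the Tet2-/- mice. The Tet2+/+ mice were close to each other (6.77 ± 0.43 CPM, SD, n = 3), and the lower Tet2-/- mean (3.89 ± 1.45 CPM, SD, n = 3) included mouse 8 at a level well below the other 2. The log2 fold change was -0.80 (SE 0.37), from 41 to 154 estimated reads per library, and -0.52 without mouse 8.

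Ikzf1 showed no such pattern. Its level was 403, 317 and 362 CPM in the Tet2+/+ and 391, 502 and 352 CPM in the Tet2-/- mice, so that the groups overlapped and mouse 7 alone stood above the rest. The log2 fold change was 0.20 (SE 0.21; 0.044 without mouse 7, 0.10 without mouse 23 and 0.31 without mouse 8), with means of 361 ± 43.3 and 415 ± 77.8 CPM (SD, n = 3 each). At 5147 to 12361 reads per library, Ikzf1 was the most deeply measured member.

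Ikzf5 varied least in CPM within either genotype, at 37.4, 38.1 and 39.1 CPM in Tet2+/+ and 31, 36.8 and 32.4 CPM in Tet2-/- mice. Although the groups did not overlap in CPM, the log2 fold change was only -0.19 (SE 0.16), and the groups overlapped in TPM. Pstk-211, on the opposite strand, was assigned 21.8 to 83.0 reads, which is 3.67 to 10.2% of the reads given to it and Ikzf5 together. With those reads added, the levels were 39.7, 41.5 and 42.6 CPM in Tet2+/+ and 33.6, 38.2 and 36.1 CPM in Tet2-/- mice.

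Ikzf4 had 1, 2 and 3 estimated reads in the Tet2+/+ mice and 7.14, 6 and 0 in the Tet2-/- mice. At this depth, where 3 reads mark the limit that a count of 0 allows, no difference was detectable, and the SE of its log2 fold change (1.10) exceeded the change itself (0.67).

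For comparison with all genes, the edgeR quasi-likelihood test called 10 of 22170 genes lower in Tet2-/- blasts (0.0451%) and none higher (0%), while 1135 were lower and 664 higher at an unadjusted p below 0.05. The biological coefficient of variation was 43.6%. DESeq2 called 326 lower and 59 higher, and no gene was called by edgeR without mouse 5, 7 or 8. Of the 13839 genes that averaged 1 CPM or more, the Tet2-/- mice were all below the Tet2+/+ mice for 7.71% and all above them for 8.24%. Ikzf2, Ikzf3 and Ikzf5 were in the former group, and the choice of the family on this contrast means that nothing can be read from their number.

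**Figure D3:**
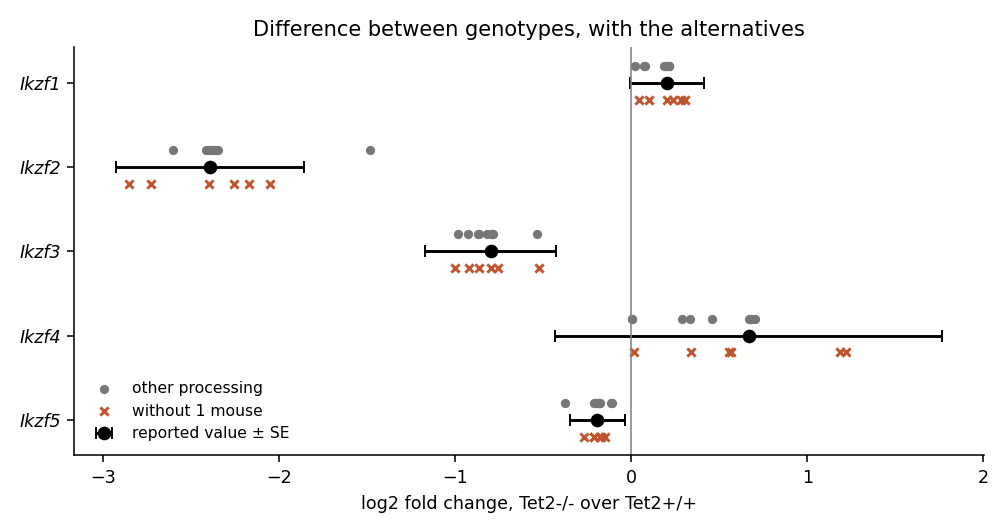
Log2 fold change of Tet2-/- over Tet2+/+ for each member (black, with SE), with the same value under other processing (grey) and with 1 mouse left out (crosses). Ikzf2 stays between -2.85 and -1.49 and Ikzf3 below 0, whereas the SE of Ikzf1 and of Ikzf4 reaches 0.

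Markers of cell types in which Ikzf2 and Ikzf3 are known to be expressed were examined in the same libraries. Summed over 7 stem and progenitor markers, the level was 233 to 398 CPM in the Tet2+/+ and 46.8 to 142 CPM in the Tet2-/- mice. All 7 had a lower fitted level in Tet2-/- blasts, as did 49.9% of all genes tested. Sox4 was the 1 marker of this list that was called (log2 fold change -2.46, SE 0.24; edgeR adjusted p = 0.0348). Of all 22170 genes tested, 10 were called lower (0.0451%). The list was chosen with earlier results of these data known, so the Sox4 call is given as a description. The sum was made up mostly of Cd34 and Sox4 while Mecom, Hlf and Procr stayed below 1 CPM. The sum over 6 plasma cell markers was 144 to 193 CPM in Tet2+/+ and 30.9 to 58.8 CPM in Tet2-/- mice, with Jchain the largest contributor. The 8 B cell markers overlapped between genotypes (25.0 to 85.1 against 23.3 to 63.6 CPM), as did the 8 T cell markers (31.8 to 41.0 against 15.9 to 45.4 CPM) and the 7 NK cell markers (18.6 to 30.8 against 7.92 to 21.4 CPM). The fitted level was lower in Tet2-/- blasts for 6 of 6 plasma cell, 7 of 8 B cell, 4 of 8 T cell and 7 of 7 NK cell markers. Summed basophil and mast cell markers were 304 to 396 CPM in Tet2+/+ and 30.9 to 110 CPM in Tet2-/- mice, mostly Cpa3 and Gata2. Gata2 is not specific to that list, as the study describes its expression in progenitors and its decrease on TET2 loss in this model. Of the other 4 genes of that list, Ms4a2 had a log2 fold change of 0.48 (SE 0.53), Mcpt8 overlapped between genotypes, and Fcer1a and Prss34 were too low to be tested. None of these markers was at 0 in all mice. Their part in the levels of Ikzf2 and Ikzf3 was not tested. For the label of the cells themselves, 9 myeloid blast markers summed to 7599 to 9558 CPM in Tet2+/+ and 7236 to 10456 CPM in Tet2-/- mice. Single markers of that list differed in direction, with log2 fold changes of -0.49 (SE 0.25) for Mpo and 1.19 (SE 0.64) for Elane. The 6 monocyte and macrophage markers were all fitted higher in Tet2-/- blasts, and their sums overlapped at 1582 to 2759 against 2427 to 4572 CPM. Summed erythroid markers were at 136 CPM in mouse 19 and at 3.59 to 14.9 CPM in the other mice.

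The next question was which transcripts the members are made as. GENCODE lists 34 transcripts for the family, of which 28 were given reads in at least 1 mouse. Most reads of Ikzf2, Ikzf3 and Ikzf5 were each assigned to a single full-length form. Ikzf2-201, with all 6 finger motifs, held 96.7 to 100% of Ikzf2 reads, so that the low level in Tet2-/- blasts was that of the full-length form. Forms of Ikzf2 with fewer fingers (Ikzf2-202, Ikzf2-204 and Ikzf2-208) never exceeded 19.1 reads. Ikzf3-201 held 83.8 to 95.3% of Ikzf3 reads and Ikzf5-201 held 84.0 to 90.5% of Ikzf5 reads, with overlapping genotypes in both cases. In TPM, which gives short transcripts more weight, the share of Ikzf5-201 was 46.0 to 82.8%.

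Ikzf1 was split between several forms. They differ in 2 exons that precede the 168-base exon, which are shown because the shares of the transcripts turn on them. The first, of 261 bases, codes for the first N-terminal finger, whose zinc-binding codons are in capitals. The other, of 60 bases, codes for no finger and is present only in Ikzf1-203.
Ikzf1 261-base exon (chr11:11748311-11748571, + strand): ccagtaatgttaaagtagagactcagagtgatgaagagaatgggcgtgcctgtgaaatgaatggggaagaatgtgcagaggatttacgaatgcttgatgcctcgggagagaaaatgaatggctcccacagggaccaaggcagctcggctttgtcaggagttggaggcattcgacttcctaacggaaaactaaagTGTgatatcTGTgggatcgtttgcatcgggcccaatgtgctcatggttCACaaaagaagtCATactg
Ikzf1 60-base exon (chr11:11740950-11741009, + strand): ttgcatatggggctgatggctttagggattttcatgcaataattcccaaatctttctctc

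Ikzf1-204, which contains the 261-base exon but not the 60-base exon, was the main form. Its coding sequence has 1545 bases and 6 finger motifs. It held 77.7, 72.4 and 71.1% of Ikzf1 reads in Tet2+/+ mice 19, 23 and 24 and 87.7, 82.0 and 76.8% in Tet2-/- mice 5, 7 and 8. The groups overlapped, as mouse 19 exceeded mouse 8.

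Ikzf1-203, with both exons, held 20.8, 26.1 and 27.2% of Ikzf1 reads in the Tet2+/+ mice and 8.59, 11.7 and 19.9% in the Tet2-/- mice. The mean share was 24.7 ± 3.46% in Tet2+/+ and 13.4 ± 5.86% in Tet2-/- blasts (SD, n = 3 each), without overlap, although mice 19 and 8 were less than 1 percentage point apart. In TPM it was likewise lower in each Tet2-/- mouse, with 9.58, 10.7 and 12.7 TPM against 3.72, 6.69 and 8.37 TPM. Of 37105 transcripts with 1 to 99% of the reads of a gene of at least 10 CPM, 7.27% had a lower share and 5.88% a higher share in every Tet2-/- mouse.

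Ikzf1-201 skips the 261-base exon and so lacks the first finger, keeping the other 5 in frame in a coding sequence of 1284 bases. It was singled out after its values were seen. Salmon assigned it 0 reads in each of the 3 Tet2+/+ mice and 349, 436 and 127 reads in Tet2-/- mice 5, 7 and 8. These were 2.82, 5.58 and 1.96% of Ikzf1 reads. In the Tet2+/+ mice, 3 reads would make 0.0445, 0.0507 and 0.0583% of Ikzf1 reads. The 0 there is an estimated split among forms that share a junction and not a count. It therefore sets no upper limit on the share of Ikzf1-201 in these mice. In TPM, Ikzf1-201 reached 3.74, 9.85 and 2.55 in the Tet2-/- mice. Of the same 37105 transcripts, 0.0512% (19) had at most 3 reads in every Tet2+/+ and at least 100 in every Tet2-/- mouse, and 9 had the opposite pattern.

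The short transcripts Ikzf1-202 and Ikzf1-205 are also annotated without the 261-base exon and were assigned reads in all 6 mice, which need not lie across the skipped exon. These short forms went the other way from Ikzf1-201. Ikzf1-202 took 0.590, 0.559 and 0.442% of reads in Tet2+/+ and 0.397, 0.342 and 0.392% in Tet2-/- mice. The mean share of Ikzf1-205 was 0.97% in Tet2+/+ and 0.50% in Tet2-/- mice, with overlap. Summed over Ikzf1-201, Ikzf1-202 and Ikzf1-205, forms without the 261-base exon took 1.47, 1.33 and 1.72% of reads in Tet2+/+ and 3.64, 6.20 and 3.15% in Tet2-/- mice. Per length the groups overlapped, with 10.6, 8.06 and 14 TPM in Tet2+/+ and 8.55, 14.4 and 10.7 TPM in Tet2-/- mice. Ikzf1-201 differs from the main form in 1 junction and its shorter ends, and how the reads at that junction were divided among the 3 forms was estimated by Salmon and could not be examined from these values.

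**Figure D4:**
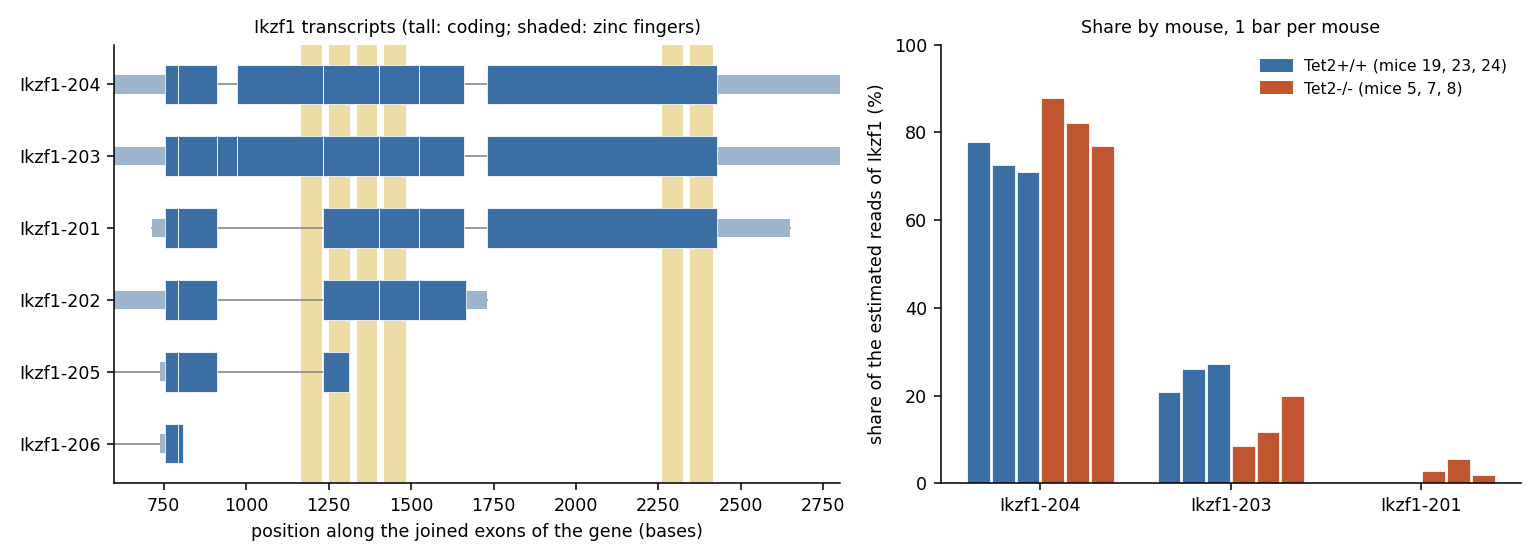
Left, the 6 annotated Ikzf1 transcripts along the joined exons of the gene (tall boxes coding, low boxes untranslated and cropped at the margins, shaded bands the 6 finger motifs of Ikzf1-204); right, the percentage of Ikzf1 reads given to 3 of them, 1 bar per mouse. Ikzf1-203 is lower in each Tet2-/- mouse than in any Tet2+/+ mouse, and Ikzf1-201 has bars in Tet2-/- mice only.

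Genes of the complexes through which the family acts were expressed in all mice. All 13 NuRD genes were tested and none was called by edgeR in either direction, nor was any below an unadjusted p of 0.05. Over all 22170 genes tested, edgeR called 0.0451% lower and 0% higher. Nothing can therefore be read from the absence of calls in this list or those below. At an unadjusted p below 0.05, 1135 of the 22170 genes were lower and 664 higher. Chd4, the main ATPase of NuRD, was at 368 to 425 CPM in Tet2+/+ and 372 to 418 CPM in Tet2-/- mice (log2 fold change 0.00, SE 0.17). Its paralogue Chd3 had the lowest p of the list, with 54.3 to 109 against 27.4 to 67.7 CPM (log2 fold change -0.75, SE 0.38; edgeR adjusted p = 0.664). Mta1, a scaffold subunit, had a log2 fold change of -0.33 (SE 0.22). The median log2 fold change of the 13 genes was 0.06, beside 0.0016 for all genes tested.

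Of 7 further co-repressor genes, none was called and Ctbp1 alone was below an unadjusted p of 0.05. Ctbp1, which Ikaros recruits independently of histone deacetylation, was at 151 to 167 CPM in Tet2+/+ and 186 to 226 CPM in Tet2-/- mice (log2 fold change 0.40, SE 0.16; edgeR adjusted p = 0.604). Ctbp2 was at 33.7 to 41.4 against 44.5 to 55.3 CPM (edgeR adjusted p = 0.674), and Ncor1, the most abundant of the list, had a log2 fold change of 0.24 (SE 0.27). None of the 5 genes of the cereblon ligase was called either. Crbn, the substrate receptor, was at 36.4 to 46.2 CPM in Tet2+/+ and 32.2 to 37.0 CPM in Tet2-/- mice, and the RING subunit Rbx1 and the adaptor Ddb1 had log2 fold changes of 0.44 (SE 0.20) and 0.06 (SE 0.20).

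Of 22 known targets of the family in lymphoid cells, 10 had a mean below 1 CPM over the 6 mice. Of the 22 genes, 20 were tested, none was called by edgeR, and 2 were lower at an unadjusted p below 0.05. Among all 22170 genes tested, 1135 were lower at that p and 0.0451% were called lower. Rag2, a subunit of the V(D)J recombinase, was at 1.26, 2.30 and 0.704 CPM in Tet2+/+ and 0.19, 0.321 and 0.163 CPM in Tet2-/- mice (log2 fold change -2.66, SE 0.62; edgeR adjusted p = 0.324). Dntt, the terminal transferase of early lymphoid cells, was at 0.0598, 0.428 and 1.34 CPM in Tet2+/+ mice and at most 0.0633 CPM in Tet2-/- mice (edgeR adjusted p = 0.543). Notch1 was the most abundant gene of this list, with 135 to 183 against 162 to 351 CPM (log2 fold change 0.50, SE 0.33). The median log2 fold change of the 20 genes was -0.50, with 13 fitted lower and 7 higher, beside a median of 0.0016 and 49.9% fitted lower for all genes tested.

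Among 12 growth and lineage genes that Ikaros proteins are known to regulate, none was called and 1 was below an unadjusted p of 0.05. This was Ccnd3, the cyclin D3 gene that Ikaros represses in pre-B cells, at 347, 270 and 255 CPM in Tet2+/+ and 551, 763 and 386 CPM in Tet2-/- mice (log2 fold change 0.96, SE 0.29; edgeR adjusted p = 0.500). Bcl6, a repressor of germinal centre B cells, was at 39.9 to 65.8 against 50.8 to 99.3 CPM (edgeR adjusted p = 0.665). The median log2 fold change of this list was 0.01, while its summed level, to which Ccnd3 contributed most, was 699 to 889 CPM in Tet2+/+ and 949 to 1227 CPM in Tet2-/- mice. Over all 5 lists, DESeq2 called 1 gene, Rag2, and on length-scaled counts Pax5 in its place. Pax5 overlapped between genotypes, at 2.81, 3.64 and 0.634 CPM in Tet2+/+ and 3.29, 0.836 and 0.163 CPM in Tet2-/- mice. Its log2 fold change in the edgeR fit was -0.70 (SE 1.02).

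**Figure D5:**
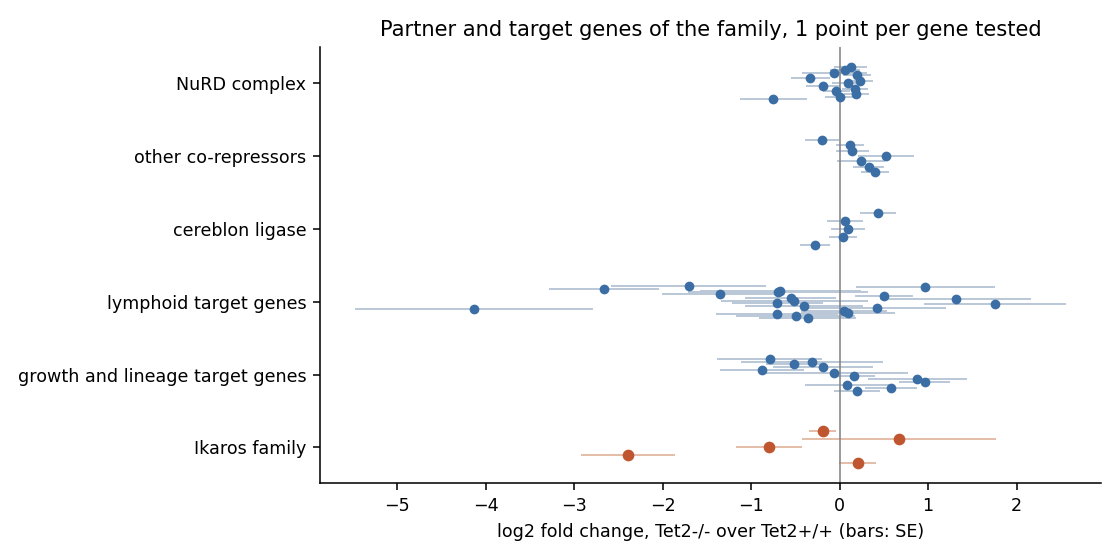
Log2 fold change with SE of each tested gene in 5 lists of partners and targets (blue), with the 5 family members below (orange). Points of the NuRD, co-repressor and cereblon lists lie near 0, with Chd3 at -0.75 the farthest, whereas the lymphoid targets spread on both sides. Of the 22 lymphoid targets, 10 average below 1 CPM. Vpreb2 and Rag1, among these 10, were not tested and are not drawn.

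Finally, the genes whose pattern over the 6 mice was most like that of each member were identified among 9820 protein-coding genes of at least 5 CPM, by the root mean square (RMS) difference of log2 CPM after centring each gene on its own mean. The nearest to Ikzf2 was Paqr8, a membrane progesterone receptor gene, with an RMS of 0.18 against a spread of Ikzf2 about its own mean of 1.39. Paqr8 was at 7.60, 22 and 19.1 CPM in Tet2+/+ and 4.43, 4.18 and 1.52 CPM in Tet2-/- mice, thus also lowest among the controls in mouse 19. Zfp945, a zinc finger gene, and Serpini1, which encodes neuroserpin, followed at 0.21 and 0.28. For Ikzf3 the nearest were Zbtb10 (0.08), Ccdc8 (0.10) and Ptprcap (0.12), the last of which encodes a CD45-associated protein and was at 23.9 to 27.7 CPM in Tet2+/+ and 9.28 to 18.2 CPM in Tet2-/- mice. Nrd1, Ggnbp2 and Copg2 came closest to Ikzf1, with 0.02 to 0.03 against a spread of 0.21. Chd8 and Mlec were among the closest to Ikzf5, both at 0.04 against a spread of 0.12. These are likenesses in 6 libraries and describe those libraries alone. Ikzf4 was left out for its low counts.

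The libraries comprised 13036643 to 32855343 estimated reads, with mouse 5 the deepest. Tet2 itself was at 73.6 to 98.4 CPM in the Tet2+/+ and 79.4 to 111 CPM in the Tet2-/- mice (log2 fold change 0.19, SE 0.19), which leaves the label unchecked, since values over whole transcripts do not show the loss of floxed exons. Cebpa was at 140, 194 and 287 CPM in Tet2+/+ and 158, 75.7 and 124 CPM in Tet2-/- mice (log2 fold change -0.80, SE 0.35).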

How the data were processed

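The authors sorted blasts, prepared unstranded TruSeq libraries and quantified reads with Salmon 0.12.0 through bcbio against Ensembl 94 (GRCm38). The deposited files hold, per transcript, lengths (used here only for the length-scaled alternative), TPM and estimated counts that need not be whole. Here, transcripts were summed per gene with GENCODE M21 (112 transcripts without a gene, 0.0307 to 0.0416% of reads, were left out), and sums were rounded. Genes with normalized counts summing to at least 10 were fitted with edgeR 4.0.16 (TMM, quasi-likelihood test, Benjamini-Hochberg adjusted p below 0.05) under R 4.3.3, with 3 mice per genotype and no covariate; depth was 13036643 to 32855343 estimated reads. DESeq2 1.42.0, length-scaled counts, other filters and scalings, and leaving out each mouse were tried as alternatives. P-values measure the spread between mice. Intervals and floors cover counting error only.

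Zinc fingers were found in translated coding sequence as Cys, 2 residues, Cys, 12 residues, His, 3 to 5 residues and His or Cys. Named were all members, Tet2 and Cebpa, in each list the 2 genes of lowest p, the most abundant and any called, the 3 genes nearest to each member, and transcripts with at least 10% of a member's reads; the few transcripts of Ikzf4 that met this last rule had under 8 reads each. Some genes that these rules cover are not reported here. The members and lists were chosen with earlier results of these data known.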

Additional observations from a re-analysis of the deposited data

How the results depend on the processing

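The genotype difference kept its direction for all 5 members under the alternatives run, except that filterByExpr removed Ikzf4 and gave it no value. It came close to 0 for Ikzf1 (0.02 with library size alone, 0.044 to 0.31 with 1 mouse left out) and for Ikzf4 (0.0030 with log2(TPM + 1), 0.014 without mouse 7). The log2 fold change of Ikzf2 was -1.49 when taken from log2(TPM + 1), and -2.85 to -2.05 with 1 mouse left out; that of Ikzf3 was -0.53 from log2(TPM + 1), and -1.0 to -0.52 with 1 mouse left out; that of Ikzf5 was -0.12 by edgeR and -0.11 by DESeq2 on length-scaled counts, and -0.37 with library size alone, a scaling that moved the median of all genes to -0.17. Ikzf3 exceeded Ikzf4 by 1.09 on log2(TPM + 1). The count of genes called lower depended on the method, with 10 by edgeR, 326 by DESeq2, 322 by DESeq2 and 5 by edgeR on length-scaled counts, 62 with no filter, and 0 to 7 with 1 mouse left out (0 without mouse 5, 7 or 8, 1 without mouse 24, 2 without mouse 23). The count called higher was 0 by edgeR, 59 by DESeq2, 64 by DESeq2 on length-scaled counts, 4 with no filter, and 1 each with filterByExpr and RLE factors. DESeq2 called 1 lymphoid target, Rag2 on the counts and Pax5 on length-scaled counts. The causes were not tested. Ikzf2 exceeded Ikzf3 by 1.03 with protein-coding transcripts alone. With 1 mouse left out, the order of levels kept its direction (Ikzf1 over Ikzf5 2.86 to 3.03, Ikzf5 over Ikzf2 1.86 to 2.63, Ikzf3 over Ikzf4 3.21 to 3.5), but 5 mice cannot give an exact p below 0.0625. No paired analysis was possible because the mice of the 2 genotypes share no numbers. Ikzf4 is limited by depth.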
